A study of Mus musculus with 11 samples.

Results

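The genes described are 10 transcripts of the integrated stress response of the liver, taken by gene symbol from a deposited table of 31280 genes: the transcription factors and cofactor Atf4, Atf3, Ddit3 and Nupr1, the target genes Trib3, Asns, Chac1 and Sesn2, and the secreted hormones Gdf15 and Fgf21. All 10 symbols were found, and all 10 passed the filter on low values. The livers came from 11 wild-type C57BL/6 mice that had eaten a methionine- and choline-deficient (MCD) diet for 8 weeks, a diet that causes steatohepatitis in mice. Water was given by gavage to the 5 mice of the MCD group, and limonin, a bitter limonoid of citrus fruit, at 100 mg/kg by gavage for 4 weeks to the 6 mice of the limonin group. Age and sex are not given in the labels. A group on a control diet is not part of the comparison, and all 11 mice share the MCD diet. Each library was taken as 1 animal, and p-values measure the spread between these libraries.

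The integrated stress response begins when a kinase (PERK, GCN2, PKR or HRI) phosphorylates the translation initiation factor eIF2alpha, which lowers general protein synthesis but favours translation of the ATF4 mRNA. ATF4 is therefore controlled largely at translation, and its mRNA level is not a measure of its protein. ATF4 pairs with C/EBP and other bZIP proteins on C/EBP-ATF response elements and raises genes for amino acid supply and further regulators such as CHOP, the product of Ddit3. In liver, FGF21 and GDF15 are secreted hormones that this response can raise, and FGF21 is also raised by PPARalpha, the fatty acid sensing receptor.

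The promoters are shown because this element is the DNA site that ATF4 dimers are known to bind. RefSeq promoters of GRCm38.p6 were found for all 10 genes (11 start sites, as Gdf15 has a pair of them), and the 250 bases before each start were searched on both strands. The core TGATGCAA, whose reverse complement is TTGCATCA, was found in the promoters of 4 genes, Atf3, Chac1, Fgf21 and Nupr1, and in 260 of 32851 promoters of the same length (0.791%). With any base at position 6 (TGATGNAA, a motif that includes the core), Asns was added and the share over all promoters was 3.45%. The element TGACGTCA, bound by ATF and CREB factors, was found in none of the 10 and in 1.55% of all promoters, and the ER stress response element, known by its paired CCAAT and CCACG boxes, in none of the 10 and in 0.113%. In each line below capitals mark the match, and the sequence is read along the strand of the gene, 5′ to 3′.
Atf3, chr1:191183395-191183484, minus strand, match 110 to 103 bases upstream of the start: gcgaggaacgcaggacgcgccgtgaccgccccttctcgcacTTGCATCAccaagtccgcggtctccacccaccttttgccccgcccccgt
Nupr1, chr7:126625532-126625621, minus strand, match 110 to 103 bases upstream: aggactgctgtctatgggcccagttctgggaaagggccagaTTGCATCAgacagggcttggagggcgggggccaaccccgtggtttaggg
Fgf21, chr7:45615491-45615740, minus strand, the whole 250 bases with the match 139 to 132 bases upstream: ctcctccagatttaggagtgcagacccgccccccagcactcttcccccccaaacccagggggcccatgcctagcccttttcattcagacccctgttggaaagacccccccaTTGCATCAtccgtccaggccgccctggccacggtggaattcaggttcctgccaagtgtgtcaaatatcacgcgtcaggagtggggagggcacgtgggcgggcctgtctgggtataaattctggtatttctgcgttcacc
Chac1, chr2:119351008-119351097, plus strand, match 193 to 186 bases upstream: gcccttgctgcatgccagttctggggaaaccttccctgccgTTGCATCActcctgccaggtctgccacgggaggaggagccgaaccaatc
Asns, chr6:7693210-7693273, minus strand, match of the looser motif 23 to 16 bases upstream: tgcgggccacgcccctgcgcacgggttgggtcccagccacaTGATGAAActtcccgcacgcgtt
A match is a description of letters in this window and not a measured binding site.

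Levels are in FPKM, fragments scaled to transcript length and to library depth, so they can be compared between genes. Depth is not stated. The commonest step among low FPKM values, times transcript length, put the libraries at 15490000 to 19680000 fragments. Limonin 2, 5 and 6 stood apart in the number of genes reaching 1 FPKM, at 9805, 9742 and 9830, while the other 8 libraries had 10327 to 11087 such genes. A gene was tested where 5 or more libraries reached 1 FPKM, which held for 10489 genes. At an adjusted p under 0.05 (limma on log2(FPKM + 1), two-sided, Benjamini-Hochberg), 25.9% of them were called in either direction, 1957 lower (18.7%) and 759 higher (7.24%) in the limonin livers. The median log2 fold change was -0.07. The split depends on scaling. Of the called genes 27.9% were higher on the deposited scale, 48.1% with median-ratio scaling, 52.9% with quantile normalization and 49.6% with libraries set to the same total. The median over all genes was 0.01, 0.03 and 0.03 on these other scales.

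The question was whether the transcripts of the response, and the hormones tied to it, differed between limonin and water. The response divided. Atf3, Ddit3, Nupr1, Gdf15 and Fgf21 fell in the limonin livers by 2.13 to 3.53 times on the scale of FPKM + 1. Atf4, Trib3, Asns, Chac1 and Sesn2 did not pass the test, with log2 fold changes of -0.29 to 0.03. Of the 10 genes 5 were lower, against 18.7% of all genes tested, and none was higher by limma, at an unadjusted p under 0.05 or in the authors' deposited table. In 4 of the 10, Atf3, Ddit3, Nupr1 and Gdf15, every limonin library lay below every MCD library, a pattern held by 8.33% of all genes tested. This was counted on the deposited scale and not on the others. On the deposited scale every limonin library had a lower summed FPKM (404050 to 462665) than every MCD library (464184 to 471623). In none of the 10 did every limonin library lie above every MCD library, as in 2.97% of all genes. The median log2 fold change of the 10 was -0.69. In the authors' deposited table, at a q under 0.05, 4 of the 10 were lower, again Atf3, Ddit3, Nupr1 and Gdf15, against 7.44% of all its genes (16% in either direction). These shares are over all 31280 genes, including those under the filter on low values that all 10 members passed. They are therefore not comparable with the 18.7% above. In RNA of whole liver, fewer cells of a type and less RNA per cell cannot be told apart.

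**Figure D1:**
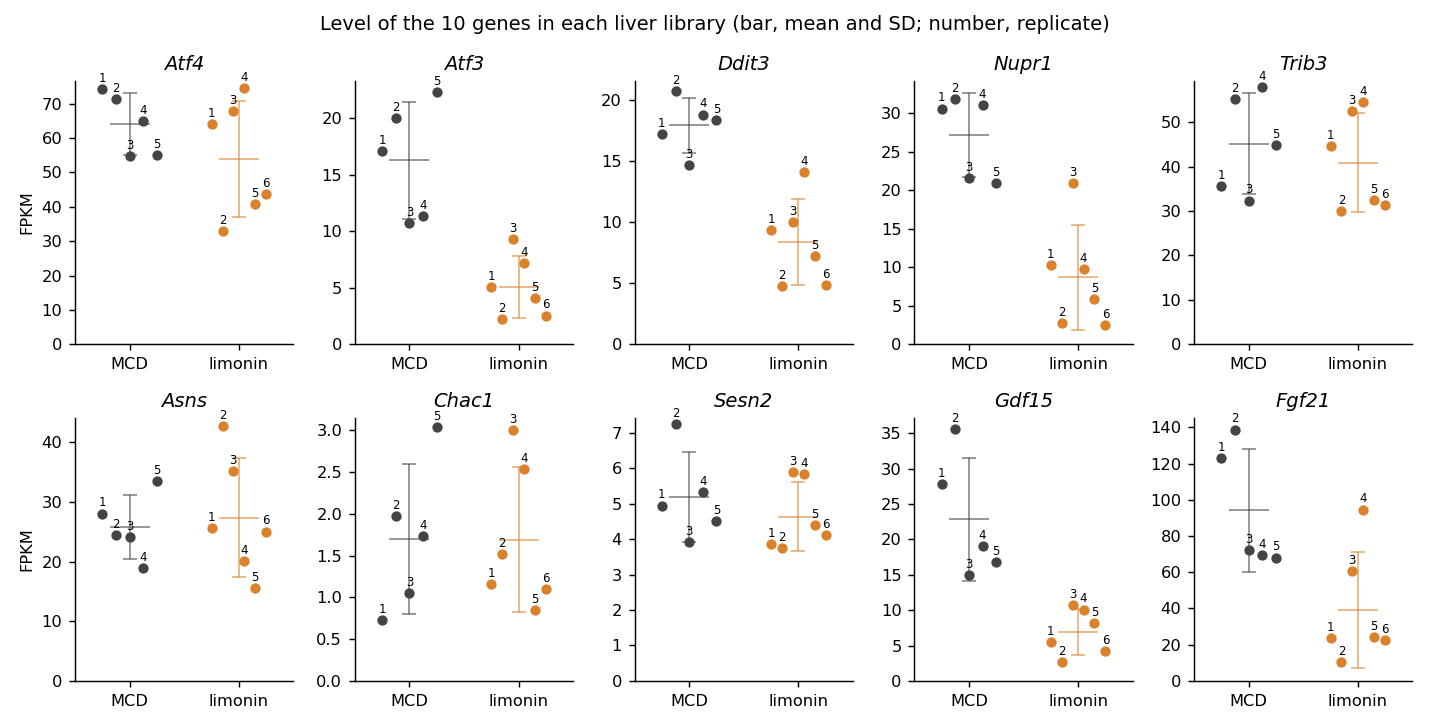
Level in FPKM (vertical axis, from 0, a separate scale for each gene) of the 10 genes in each MCD (grey, n = 5) and limonin (orange, n = 6) library; numbers are replicates and bars the mean and SD. For Atf3, Ddit3, Nupr1 and Gdf15 the groups do not overlap, for Fgf21 limonin 4 at 94.6 FPKM lies among the MCD libraries, and for Atf4, Trib3, Asns, Chac1 and Sesn2 the groups overlap.

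Atf4 (chromosome 15, 80255184 to 80257541, plus strand; all gene coordinates are those of GRCm38 with GENCODE M21) encodes the transcription factor at the centre of the response. It stood at 74.2, 71.3, 54.9, 65.0 and 55.2 FPKM in MCD 1 to 5 and at 64.0, 32.8, 67.8, 74.5, 40.8 and 43.7 in limonin 1 to 6. The groups overlapped. Limonin 2, 5 and 6 lay below all MCD libraries, and limonin 1, 3 and 4 among them or, for limonin 4, just above the highest. The means were 64.1 ± 8.95 (SD, n = 5) and 53.9 ± 17 FPKM (SD, n = 6). The log2 fold change was -0.29 ± 0.20 (SE; adjusted p = 0.280, limma). Its 95% confidence interval, -0.71 to 0.12, held both falls and a small rise. It did not reach the estimate for Ddit3, -1.09, but overlapped the interval of that gene, -1.58 to -0.61.

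Atf3 (chromosome 1, 191170296 to 191218039, minus strand) encodes a stress-induced bZIP repressor and activator raised by ATF4 and by other stress pathways. Its levels were 17.1, 19.997, 10.7, 11.3 and 22.3 FPKM in MCD 1 to 5, and 5.03, 2.24, 9.34, 7.20, 4.10 and 2.53 in limonin 1 to 6. Limonin 3, the highest of its group, stayed just under MCD 3, the lowest of the MCD libraries. The mean was 16.3 ± 5.16 FPKM (SD, n = 5) against 5.07 ± 2.77 (SD, n = 6). The log2 fold change was -1.58 ± 0.31 (SE; adjusted p = 0.00537, limma), 2.99 times lower with limonin on FPKM + 1.

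Ddit3 (chromosome 10, 127290774 to 127296288, plus strand) encodes CHOP, which dimerizes with C/EBP proteins and takes part in stress-induced cell death. It was measured at 17.2, 20.8, 14.7, 18.8 and 18.4 FPKM in MCD 1 to 5 and at 9.36, 4.76, 10.02, 14.1, 7.24 and 4.83 in limonin 1 to 6. All 6 limonin libraries were lower, with limonin 4 close to MCD 3. The group means were 18 ± 2.26 (SD, n = 5) and 8.38 ± 3.56 FPKM (SD, n = 6), and the log2 fold change was -1.09 ± 0.22 (SE; adjusted p = 0.00547, limma). On the opposite strand Ddit3 overlaps Mars, the cytosolic methionyl-tRNA synthetase, listed at means of 15.1 FPKM in MCD and 15.0 in limonin livers. It also overlaps Gm4189 on the opposite strand, at means of 0.582 and 0.417 FPKM. A second annotated gene named Ddit3 overlaps it on the same strand and has no entry in the deposited table. The sources used here do not say whether strand entered the quantification, so genes on opposite strands may share reads where they overlap. The part of the second Ddit3 entry was not tested.

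Nupr1 (chromosome 7, 126623249 to 126630861, minus strand) encodes a small stress-induced chromatin protein that acts with ATF4 and CHOP. MCD 1 to 5 had 30.6, 31.8, 21.6, 31.1 and 20.9 FPKM, and limonin 1 to 6 had 10.3, 2.75, 20.9, 9.75, 5.84 and 2.49. Limonin 3 was level with MCD 5 to 3 significant digits (20.93 against 20.94 FPKM), and the other 5 limonin libraries were far lower. Its mean of 27.2 ± 5.46 FPKM (SD, n = 5) compared with 8.68 ± 6.86 (SD, n = 6), and its log2 fold change of -1.82 ± 0.44 (SE; adjusted p = 0.0152, limma) was the lowest among the 10 genes, with a standard error second to that of Fgf21.

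Among the 4 target genes none passed the test. Trib3 (chromosome 2, 152337422 to 152344032, minus strand), a pseudokinase that restrains ATF4 and CHOP, was at 35.7, 55.2, 32.4, 57.9 and 44.8 FPKM in MCD 1 to 5 and at 44.7, 30.0, 52.5, 54.6, 32.4 and 31.4 in limonin 1 to 6, and the groups overlapped. Its log2 fold change was -0.15 ± 0.20 (SE; adjusted p = 0.612, limma; 95% confidence interval -0.57 to 0.28). Asns (chromosome 6, 7675169 to 7693254, minus strand), asparagine synthetase, was at 28, 24.5, 24.2, 18.9 and 33.5 FPKM in MCD 1 to 5 and at 25.7, 42.8, 35.2, 20.1, 15.5 and 25 in limonin 1 to 6, where limonin 2 was the highest of all 11 libraries and limonin 5 the lowest. Its log2 fold change was 0.03 ± 0.22 (SE; adjusted p = 0.933, limma; interval -0.45 to 0.52).

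Chac1 (chromosome 2, 119351229 to 119354381, plus strand), which degrades glutathione and is a target of the ATF4 and CHOP pathway, was the least abundant of the 10. It was at 0.726, 1.97, 1.05, 1.73 and 3.04 FPKM in MCD 1 to 5 and at 1.16, 1.52, 3.00, 2.53, 0.844 and 1.09 in limonin 1 to 6. Its spread within each group was wide against its mean, 1.70 ± 0.899 (SD, n = 5) and 1.69 ± 0.872 FPKM (SD, n = 6), and the 95% confidence interval of its log2 fold change ran from -0.53 to 0.52 (adjusted p = 0.994, limma). Sesn2 (chromosome 4, 132492032 to 132510501, minus strand), a leucine sensor that restrains mTORC1, was at 4.95, 7.25, 3.92, 5.33 and 4.51 FPKM in MCD 1 to 5 and at 3.85, 3.74, 5.89, 5.84, 4.41 and 4.11 in limonin 1 to 6. The Sesn2 groups overlapped, with a log2 fold change of -0.13 ± 0.15 (SE; adjusted p = 0.535, limma; interval -0.44 to 0.18).

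Both hormones were lower in the limonin livers, Gdf15 with no overlap of the groups and Fgf21 with 1 limonin library among the MCD libraries. Gdf15 (chromosome 8, 70629393 to 70632456, minus strand), which acts on the hindbrain receptor GFRAL to lower food intake, stood at 27.8, 35.6, 15.0, 19.1 and 16.8 FPKM in MCD 1 to 5 and at 5.45, 2.71, 10.8, 10.1, 8.12 and 4.26 in limonin 1 to 6. No limonin library reached the lowest MCD library, MCD 3. The means were 22.9 ± 8.66 (SD, n = 5) and 6.90 ± 3.26 FPKM (SD, n = 6), with a log2 fold change of -1.64 ± 0.32 (SE; adjusted p = 0.00546, limma), 3.11 times lower on FPKM + 1.

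Fgf21 (chromosome 7, 45613886 to 45615490, minus strand), a hormone of fasting, amino acid shortage and ketogenic feeding, had 123, 139, 72.0, 69.4 and 68.1 FPKM in MCD 1 to 5 and 23.6, 10.5, 60.7, 94.6, 24.1 and 22.6 in limonin 1 to 6. Limonin 4 lay among the MCD libraries, limonin 3 a little below them, and the remaining 4 limonin libraries far below. Relative to the mean, the spread was 36.0% in MCD and 81.2% in limonin livers. The means were 94.2 ± 33.9 (SD, n = 5) and 39.3 ± 31.9 FPKM (SD, n = 6), and the log2 fold change was -1.52 ± 0.50 (SE; adjusted p = 0.0474, limma). That call was at the edge of the threshold: without any one of MCD 1 to 5 or limonin 1, 2, 5 or 6 the adjusted p ranged from 0.0673 to 0.119 (limma), and without limonin 3 or limonin 4 it was 0.0302 and 0.0142. In the authors' deposited table Fgf21 had a q of 0.139 and was not called.

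**Figure D2:**
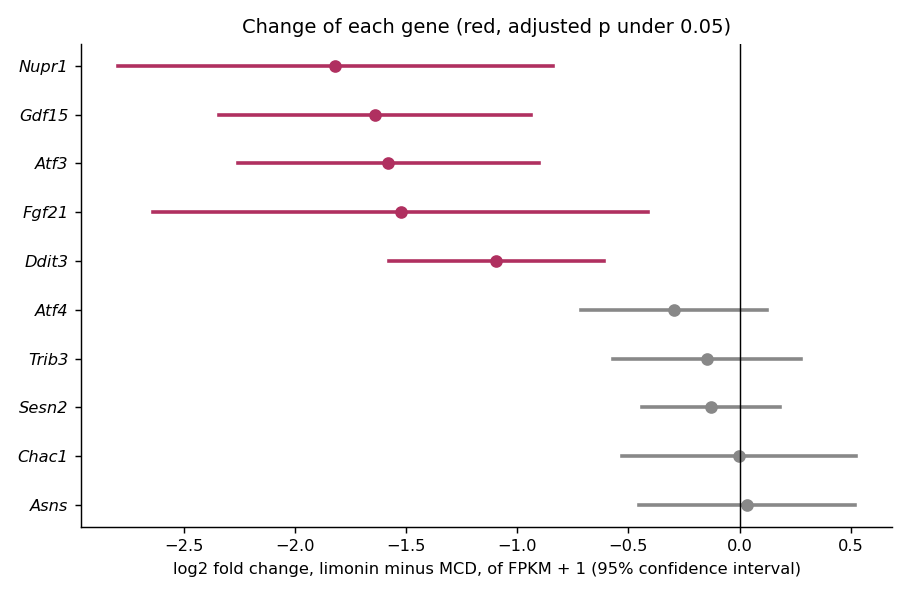
Log2 fold change of each gene (horizontal axis, limonin minus MCD, on log2(FPKM + 1)) with its 95% confidence interval; red marks an adjusted p under 0.05. The 5 red genes lie between -1.82 (Nupr1) and -1.09 (Ddit3), and the 5 grey genes between -0.29 (Atf4) and 0.03 (Asns).

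The limonin libraries differed among themselves in most of the 10 genes. Limonin 2 was the lowest of its group for 7 of the 10 genes (Atf4, Atf3, Ddit3, Trib3, Sesn2, Gdf15 and Fgf21) and the highest for Asns. Limonin 3 or limonin 4 was the highest for all genes other than Asns. Without limonin 2, 5 and 6, a setting chosen after seeing the data, 4 of the 10 genes were still lower (limma): Atf3 at -1.06 (adjusted p = 0.0294), Ddit3 at -0.65 (adjusted p = 0.0198), Nupr1 at -1.0 (adjusted p = 0.0289) and Gdf15 at -1.26 (adjusted p = 0.0282). Fgf21 was at -0.79 (adjusted p = 0.246, limma) in that fit, and Atf4 at 0.11. Over all genes, 797 of 10310 tested were lower in the same fit. With group means subtracted, the number of detected genes had an r over the 11 libraries of 0.83 with Atf4, 0.71 with Atf3, 0.68 with Ddit3, 0.67 with Fgf21, 0.65 with Nupr1, 0.59 with Gdf15 and 0.15 with Asns; its part in the results was not tested.

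The order of levels changed among the most abundant members. In MCD livers Fgf21 was first at a mean of 94.2 FPKM, followed by Atf4 at 64.1 and Trib3 at 45.2, neighbours whose ranges overlapped. The next 5, Nupr1, Asns, Gdf15, Ddit3 and Atf3, lay between means of 27.2 and 16.3 FPKM, with the ranges of neighbours overlapping. Nupr1 lay apart from Trib3, its neighbour above, and Atf3 from Sesn2, its neighbour below, while Asns and Gdf15 reached 33.5 and 35.6 FPKM and so overlapped Trib3. In limonin livers Atf4 came first at 53.9 FPKM, then Trib3 at 40.9 and Fgf21 at 39.3, and every neighbour in the order overlapped except Sesn2 and Chac1. Both groups ended with Sesn2 and Chac1.

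Ratios of 2 genes within one library do not depend on how libraries are scaled, apart from the pseudocount. They were compared in a test chosen after seeing the data. Ddit3 relative to Atf4 fell from a log2 ratio of -1.78 ± 0.19 (SD, n = 5) to -2.58 ± 0.23 (SD, n = 6), and was lower in 6 of 6 limonin libraries. The exact two-sided permutation p was 0.00216, the smallest that the 462 splits allow, and the adjusted p over the 45 pairs was 0.0108. The same ratio to Atf4 changed by -1.29 for Atf3 (exact permutation, adjusted p = 0.0108), by -1.52 for Nupr1 (adjusted p = 0.0122), by -1.34 for Gdf15 (adjusted p = 0.0122) and by -1.23 for Fgf21 (adjusted p = 0.0296). Of the 25 pairs that join a gene called lower with a gene not called, 24 passed an adjusted p under 0.05, and the exception was Fgf21 with Asns (exact permutation, adjusted p = 0.0674). None of the 10 pairs among the 5 genes called lower passed (2 at an unadjusted exact p under 0.05), and none of the 10 pairs among the other 5 genes (0 at an unadjusted p under 0.05). The same libraries sorted the genes into these sets, so the counts describe the division and are no independent test of it. Without limonin 2, 5 and 6, no pair passed. With 56 splits available, a pair could pass the adjustment over 45 pairs only if many pairs reached the smallest possible p together. That setting therefore cannot decide whether the division held.

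**Figure D3:**
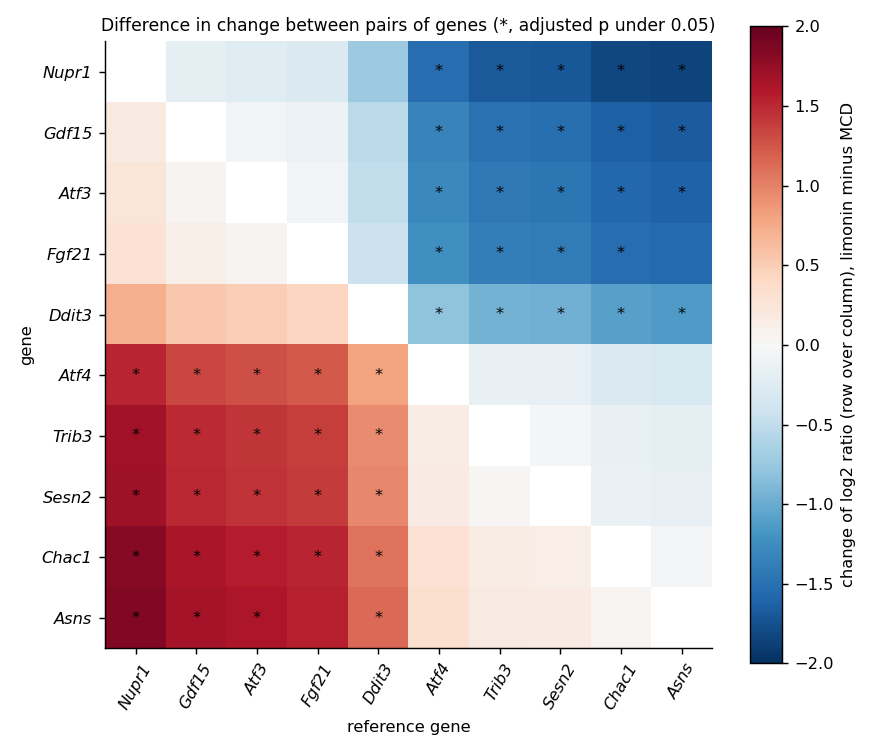
Change in the within-library log2 ratio of the row gene to the column gene, limonin minus MCD (colour, from -2 in blue to 2 in red); stars mark an adjusted p under 0.05 over 45 pairs, exact permutation test. The starred pairs, 24 of 45, all join one of Nupr1, Gdf15, Atf3, Fgf21 and Ddit3 with one of Atf4, Trib3, Sesn2, Chac1 and Asns.

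Across the 11 libraries, with group means subtracted so that the group difference itself does not enter, the hormones varied with part of the response. Pearson's r of log2(FPKM + 1) was computed for Fgf21 and for Gdf15 with each of the other 8 genes, 16 pairs in all, with an exact permutation of values within the groups. After adjustment 9 of the 16 pairs passed, and 2 with median-ratio scaling of the libraries. Fgf21 varied with Atf4 (r = 0.87, exact permutation p = 0.00137, adjusted p = 0.0109), with Ddit3 (r = 0.83, adjusted p = 0.0306), with Sesn2 (r = 0.80, adjusted p = 0.0164) and with Atf3 (r = 0.78, adjusted p = 0.0306). Gdf15 varied most closely with Sesn2 (r = 0.86, exact permutation p = 0.000891, adjusted p = 0.0109) and also with Atf3 (r = 0.78), Ddit3 (r = 0.76), Atf4 (r = 0.76) and Nupr1 (r = 0.76), each at an adjusted p of 0.0306 or 0.0351 (exact permutation). The hormones themselves had an r of 0.88 (exact permutation p = 0.000509) and a rho of 0.83 (exact permutation p = 0.00644).

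The pairs that missed the threshold included those with Trib3, at an r of 0.64 with Fgf21 and 0.61 with Gdf15, and that of Fgf21 with Nupr1, at 0.71. Chac1 had an r of 0.40 with Fgf21 and 0.26 with Gdf15, and Asns was the one gene with negative values, -0.25 and -0.36. By Spearman's rho, 1 of the 16 pairs passed after adjustment, Gdf15 with Sesn2 (rho = 0.92, exact permutation p = 0.000509, adjusted p = 0.00815), and the rho of Fgf21 with Atf4 was 0.75 (adjusted p = 0.0591, exact permutation). Leaving out the 2 libraries farthest from the median of the stress gene gave r of 0.71 for Fgf21 with Atf4, 0.53 with Ddit3, 0.81 with Sesn2 and 0.63 with Atf3. It gave 0.78 for Gdf15 with Sesn2, 0.63 with Atf3, 0.63 with Ddit3, 0.56 with Atf4 and 0.73 with Nupr1.

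The number of pairs that passed rested on single libraries: 1 pair without MCD 2, 1 without limonin 2, 3 without MCD 3, 3 without limonin 3, 3 without limonin 4 and 4 without limonin 6, against 7 to 10 without each of the others. With the number of detected genes regressed out, a setting chosen after seeing the data, 2 pairs passed. They were Fgf21 with Sesn2 (r = 0.76) and Gdf15 with Sesn2 (r = 0.83). Both had an adjusted p of 0.0182 (residuals permuted within the groups, an approximate test). In the 6 limonin libraries alone the 9 pairs had r of 0.75 to 0.94 and none of the 16 passed after adjustment (smallest adjusted p 0.0622, exact permutation).

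**Figure D4:**
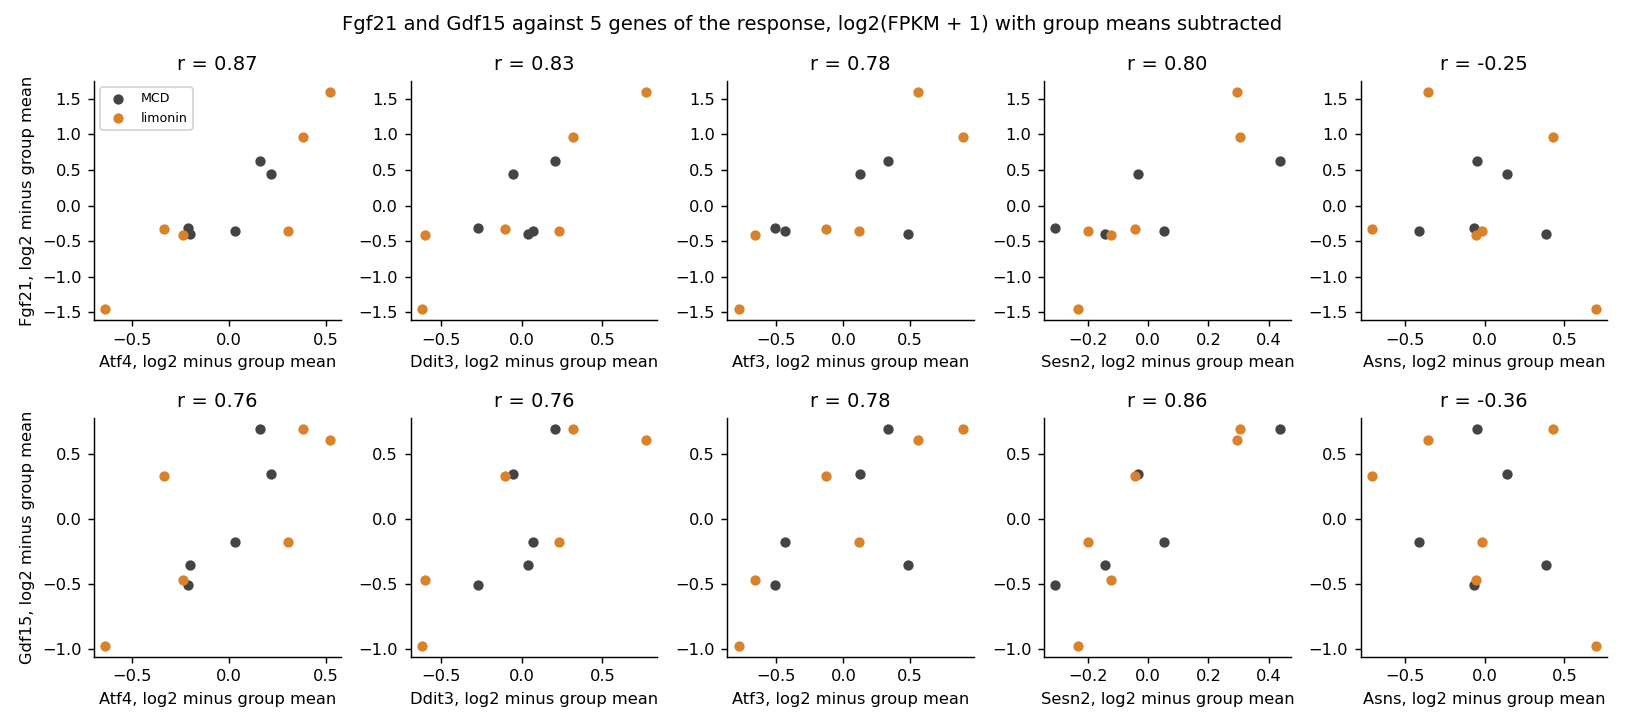
Fgf21 (top row) and Gdf15 (bottom row) against 5 genes of the response, each as log2(FPKM + 1) minus its group mean, 1 point per library (MCD grey, limonin orange), with Pearson's r above each panel. The values rise together for Atf4, Ddit3, Atf3 and Sesn2 (r of 0.76 to 0.87) and not for Asns (-0.25 and -0.36).

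As a description, the genes most alike to each hormone over the 11 libraries, by the same r among 10488 other tested genes, were Arl4a (0.92), Heg1 (0.91), Ddit4 (0.89), an ATF4 target that restrains mTORC1, and the chemokine gene Ccl2 (0.89) for Fgf21. For Gdf15 they were the guanylate-binding protein gene Gbp2 (0.92), Fam50a (0.91), Dlgap4 (0.89) and Ttc39a (0.89). For Fgf21, Gdf15 ranked 6, Atf4 11, Ddit3 35, Sesn2 84, Atf3 118, Nupr1 271, Trib3 637, Chac1 3196 and Asns 9537. For Gdf15, Fgf21 ranked 8, Sesn2 30, Atf3 167, Ddit3 219, Atf4 225, Nupr1 227, Trib3 1020, Chac1 4924 and Asns 9871. Genes other than the members held most of the higher ranks, so an r as high as in the pairs that passed was not particular to the members.

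Beyond the 10 genes, the wider response had shares of called genes near those of all genes, by limma on the deposited scale with all libraries. It was taken as 9 lists of the pathway (sensors, eIF2 and eIF2B, bZIP partners, amino acid synthesis, amino acid transport, tRNA synthetases, growth restraint and death, the XBP1 and ATF6 arm, and the mitochondrial stress response). Of their 107 genes 94 were tested, 15 were lower (16%, against 18.7% of all genes) and 6 higher (6.38%, against 7.24%). Their median log2 fold change was 0.00, against -0.07 over all genes. Like all fold changes here, those below are on FPKM + 1, which understates the change of genes near or under 1 FPKM. With a pseudocount of 0.01, the log2 fold changes of Slc7a5, Jdp2 and Fgfr1 were -0.64, -0.93 and -0.99, more than 1.5 times those given below. Single libraries moved these counts: 7 were lower without MCD 2, 9 without MCD 1 and 23 without limonin 3, and 2 were higher without MCD 2 or MCD 3, 3 without limonin 2 and 9 without limonin 5. Counts over all genes moved too. In the same order, 996, 1294 and 2054 were lower, and 318, 506, 515 and 1087 higher. The balance turns with scaling: 10 were lower and 16 higher with median-ratio scaling, 13 and 19 with quantile normalization, and 7 and 11 with libraries set to the same total. It turned over all 10489 genes as well, with 1589 lower and 1470 higher, 1614 and 1813, and 1112 and 1096 on these scales.

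Upstream, of 10 listed eIF2alpha kinases and sensors, Eif2ak2 (PKR), Eif2ak4 (GCN2) and Impact were under the filter on low values. Eif2ak1 (HRI) and Eif2ak3 (PERK) were tested and not called. Among the 7 tested 1 was higher (14.3%, against 7.24% of all genes). None was lower by limma, at an unadjusted p under 0.05 or in the authors' deposited table. With median-ratio scaling 3 of the 7 were higher, with quantile normalization 4 and with libraries set to the same total 2, and 3 were higher in the authors' deposited table. The called gene was Dnajc3, which encodes the PERK and PKR inhibitor p58IPK, at 14.2 ± 1.76 FPKM (SD, n = 5) and 21.2 ± 3.99 (SD, n = 6), a rise of 0.53 ± 0.13 on the log2 scale (SE; adjusted p = 0.0119, limma). Oma1 and Dele1, of the relay that reports mitochondrial stress to HRI, were at 0.24 (adjusted p = 0.072, limma) and 0.19 (adjusted p = 0.208). Of the 11 genes for eIF2, eIF2B and the phosphatase, 2 were lower (18.2%, against 18.7% of all genes) and 1 higher (9.09%, against 7.24%). These counts were 1 and 2 with median-ratio scaling and 2 and 3 with quantile normalization. Ppp1r15a, or GADD34, the stress-induced subunit that directs phosphatase to eIF2alpha and itself a target of the response, fell from 8.76 ± 1.49 (SD, n = 5) to 5.22 ± 1.53 FPKM (SD, n = 6), by 0.67 ± 0.16 (SE) on the log2 scale (adjusted p = 0.00984, limma). Without limonin 2, 5 and 6 its adjusted p was 0.0703 (limma). Eif2b4 was at -0.31 (adjusted p = 0.0167, limma; 0.0564 without MCD 2) and Eif2s3x at 0.38 (adjusted p = 0.0245; 0.0503 to 0.0668 without MCD 2, MCD 3 or limonin 2).

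Among the bZIP partners of ATF4 and CHOP 4 of 11 were lower (36.4%, against 18.7% of all genes), with a median log2 fold change of -0.41. None was higher by limma, at an unadjusted p under 0.05 or in the authors' deposited table. Fos fell from 2.19 ± 0.634 (SD, n = 5) to 0.627 ± 0.218 FPKM (SD, n = 6), by 0.96 ± 0.13 (SE) on log2(FPKM + 1) (adjusted p = 0.0012, limma). With a pseudocount of 0.01 in place of 1 its log2 fold change was -1.81. Jun fell from 23.7 ± 7.46 (SD, n = 5) to 7.75 ± 2.20 FPKM (SD, n = 6), by 1.49 ± 0.22 (adjusted p = 0.00154, limma), and Jund from 102 ± 18.1 (SD, n = 5) to 48.2 ± 15.0 FPKM (SD, n = 6), by 1.10 ± 0.18 (adjusted p = 0.00201, limma). These 3 are AP-1 subunits, and every limonin library lay below every MCD library for each of them. The fourth, Cebpb, a C/EBP partner of ATF4, was at -0.41 (adjusted p = 0.0238, limma) and is named after its value was seen.

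Of 12 tested genes of amino acid synthesis 2 were lower (16.7%, against 18.7% of all genes) and 1 higher (8.33%, against 7.24%). Those lower numbered 4 without MCD 4 or without limonin 3 and 1 without MCD 1 or without MCD 2. With libraries set to the same total 1 was lower and 2 higher. Of all genes the fits without 1 library called 1799, 2054, 1294 and 996 lower. The same total gave 1112 lower and 1096 higher of 10489. Phgdh, the first enzyme of serine synthesis, fell from 2.65 ± 1.06 (SD, n = 5) to 0.644 ± 0.405 FPKM (SD, n = 6), by 1.13 ± 0.20 (SE) on log2(FPKM + 1) (adjusted p = 0.00277, limma). With a pseudocount of 0.01 its log2 fold change was -2.14. Pck2, mitochondrial PEP carboxykinase, was at -0.58 (adjusted p = 0.0184, limma; 0.0506 without MCD 1 and 0.0581 without MCD 2), and Cbs, of the transsulfuration pathway, at 0.44 (adjusted p = 0.0341; 0.0537 to 0.0904 without MCD 1, 2, 3 or 5 or limonin 2 or 3). Of 7 amino acid transporter genes 3 were lower (42.9%, against 18.7% of all genes), and 1 without MCD 1 or without MCD 2. Slc1a5, a glutamine carrier, fell from 4.31 ± 0.656 (SD, n = 5) to 2.26 ± 0.852 FPKM (SD, n = 6), by 0.74 ± 0.16 (adjusted p = 0.00667, limma). The subunits of one leucine exchanger, Slc7a5 and Slc3a2, were at -0.39 (adjusted p = 0.0214, limma; up to 0.0666 without MCD 1 or MCD 2) and -0.72 (adjusted p = 0.0352; 0.0544 to 0.0994 without MCD 1, 2 or 5 or limonin 1, 2, 5 or 6).

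Of 12 tRNA synthetase genes 3 were lower (25%, against 18.7% of all genes) and 1 higher (8.33%, against 7.24%), all near the threshold. The balance turned to 0 lower and 2 higher with median-ratio scaling and to 1 and 3 with quantile normalization. All 10489 genes gave 1589 lower and 1470 higher, and 1614 and 1813, on these scales. Leaving out any one of MCD 1, 2, 5 and limonin 1, 6 left none lower by limma. Those fits called 996 to 2118 genes lower in all. With all libraries 3 were lower at an unadjusted p under 0.05 (limma), and 0 in the authors' deposited table. Tars was at 0.40 (adjusted p = 0.0245, limma; 0.0502 to 0.0682 without MCD 2, 3 or 5), Sars at -0.33 (adjusted p = 0.0338; up to 0.0975 without MCD 1, 2, 4 or 5 or limonin 1, 2, 4 or 6) and Cars at -0.36 (adjusted p = 0.0443; up to 0.118 without MCD 1, 2 or 5 or limonin 1, 2, 5 or 6). The third called lower, Wars, was at -0.31 (adjusted p = 0.0478, limma) and is named after its value was seen. Among 11 genes of growth restraint and death 1 was lower, Jdp2, a bZIP repressor, which fell from 1.83 ± 0.454 (SD, n = 5) to 0.957 ± 0.216 FPKM (SD, n = 6), by 0.53 ± 0.12 on the log2 scale (adjusted p = 0.00865, limma). Without limonin 3, 4 of these 11 were lower, and 2 without limonin 4. Those fits called 2054 and 1619 genes lower in all. Eif4ebp1, a translation repressor, was at -0.29 (adjusted p = 0.0733, limma) and Sqstm1, the autophagy receptor p62, at -0.34 (adjusted p = 0.0867).

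In the XBP1 and ATF6 arm, the branches of the ER stress response that do not run through eIF2alpha, none of 15 genes was called by limma. At an unadjusted p under 0.05 (limma) there were 4, 2 lower and 2 higher. The authors' deposited table called 5 higher, and of all its 31280 genes it called 5010, 2328 of them lower. The 3 with the smallest p were Sdf2l1 at -0.43 (adjusted p = 0.0614, limma), Edem1 at 0.27 (adjusted p = 0.0649) and Creld2 at -0.29 (adjusted p = 0.073), and Hspa5, the chaperone BiP, named for its role and not by rank, was at 0.21 (adjusted p = 0.268). On the 3 other scales 2 or 3 of the 15 were higher and none lower. Of all 10489 genes 1470 were higher with median-ratio scaling, 1813 with quantile normalization and 1096 with libraries set to the same total. Among 8 genes of the mitochondrial stress response 2 were higher (25%, against 7.24% of all genes). Without MCD 2, 3 or 5 or limonin 2 or 4 it was 1. Those fits called 318 to 548 genes higher in all. Hspa9, the mitochondrial HSP70, rose from 72.4 ± 7.96 (SD, n = 5) to 116 ± 26.1 FPKM (SD, n = 6), by 0.64 ± 0.14 on the log2 scale (adjusted p = 0.00742, limma), and Hspd1, the chaperonin HSP60, was at 0.50 (adjusted p = 0.0259; 0.052 to 0.0792 without MCD 2, 3 or 5 or limonin 2 or 4). Tfam, the mitochondrial DNA packaging factor, was at 0.28 (adjusted p = 0.0552, limma).

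**Figure D5:**
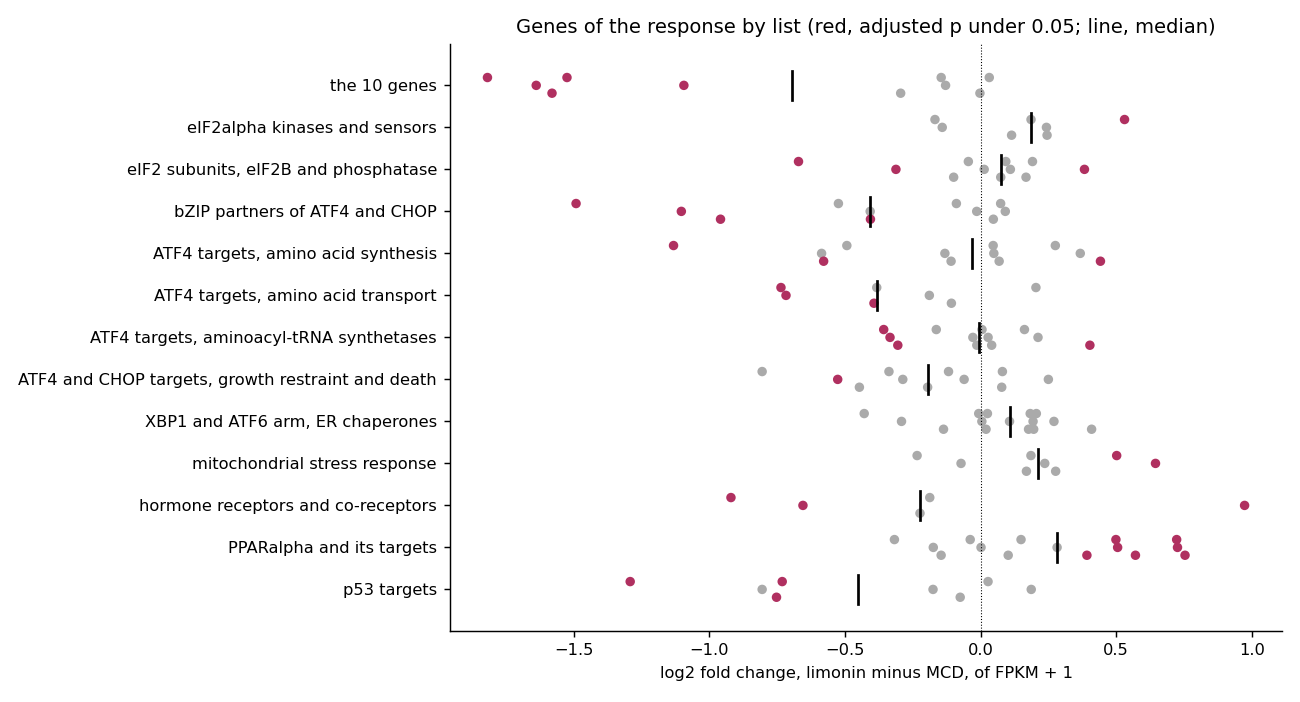
Log2 fold change (horizontal axis, limonin minus MCD, on log2(FPKM + 1)) of each tested gene, by list; red points have an adjusted p under 0.05 and black lines are list medians. The median of the 10 genes is -0.69, and those of the other lists lie between -0.45 (p53 targets) and 0.28 (PPARalpha and its targets).

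Of 5 tested genes for receptors and co-receptors of the hormones 1 was higher, 2 were lower and 2 did not pass the test. Over all genes 7.24% were higher and 18.7% lower. Klb, or beta-Klotho, the co-receptor that FGF21 requires, rose from 1.46 ± 0.313 (SD, n = 5) to 3.95 ± 1.37 FPKM (SD, n = 6), by 0.97 ± 0.16 on log2(FPKM + 1) (adjusted p = 0.00214, limma), and was higher in 6 of 6 limonin libraries. Fgfr3 fell from 14.1 ± 3.87 (SD, n = 5) to 6.91 ± 1.60 FPKM (SD, n = 6), by 0.92 ± 0.17 (adjusted p = 0.00288, limma), and Fgfr1 from 2.81 ± 0.795 (SD, n = 5) to 1.39 ± 0.265 FPKM (SD, n = 6), by 0.66 ± 0.14 (adjusted p = 0.00512, limma). Fgfr4, the main FGF receptor of hepatocytes and named for that role, was at -0.19 (adjusted p = 0.192, limma). The coreceptor of GFRAL, Ret, was under the filter on low values, and Gfral had no entry in the deposited table. No receptor gene of GDF15 was therefore tested.

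Other regulators of the same members were examined beside them. Of 15 genes of PPARalpha, a second activator of Fgf21, 7 were higher, against 7.24% of all genes. None of the 15 was lower by limma, at an unadjusted p under 0.05 or in the authors' deposited table. Those higher numbered 2 without MCD 2 and 4 without MCD 3 or limonin 3. These fits called 318, 506 and 613 genes higher in all. Cyp4a10 rose from 75.4 ± 7.93 (SD, n = 5) to 125 ± 15.5 FPKM (SD, n = 6), by 0.72 ± 0.11 on the log2 scale (adjusted p = 0.00165, limma), and Cyp4a14 from 474 ± 89.1 (SD, n = 5) to 777 ± 97.1 FPKM (SD, n = 6), by 0.73 ± 0.14 (adjusted p = 0.00351, limma). Both are fatty acid hydroxylases, and every limonin library was above every MCD library. Vnn1, a pantetheinase, was at 0.50 (adjusted p = 0.0196, limma; 0.0564 without MCD 2). Of 8 tested targets of p53, which also raises Gdf15 and Sesn2, 3 were lower (37.5%, against 18.7% of all genes). None was higher by limma, at an unadjusted p under 0.05 or in the authors' deposited table. Those lower were Btg2 at -0.75 ± 0.14 (adjusted p = 0.00366, limma), Phlda3 at -1.29 ± 0.29 (adjusted p = 0.00901) and Bax at -0.73 ± 0.17 (adjusted p = 0.0101).

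Markers of several other liver cell types were lower in the limonin livers, as the 5 genes were, and their part in those changes was not tested. Over all genes tested 18.7% were lower and 7.24% higher. Macrophage and Kupffer cell markers were lower in 6 of 11 tested, with a summed level of 183 to 690 FPKM in MCD and 110 to 184 in limonin livers, and 9 of 10 stellate cell markers were lower (82.2 to 161 and 51.7 to 77.3 FPKM). All 5 tested cholangiocyte markers were lower (73.0 to 400 and 26.5 to 85.1 FPKM), as were 2 of 3 neutrophil markers (5.00 to 34.3 and 3.73 to 7.75 FPKM). Of 7 endothelial markers 1 was higher and none lower. Hepatocyte markers, which define the labelled tissue, summed to 30580 to 38264 FPKM in MCD and 32587 to 49675 in limonin livers, and 4 of 10 were higher and none lower (limma; 1 lower at an unadjusted p under 0.05 and 0 in the authors' deposited table). Those higher numbered 2 without MCD 1 or without MCD 2, where 465 of 10275 and 318 of 10294 genes were higher in all. Pancreatic acinar markers, checked because the pancreas also makes Fgf21, summed to at most 11.4 FPKM in MCD and 11.7 in limonin livers, and 1 of 12 was tested and not called. No marker list had a gene at 0 in every library. Without limonin 2, 5 and 6, the adjusted test (limma) called 0 macrophage markers lower (4 at an unadjusted p under 0.05), 5 stellate cell markers and 1 cholangiocyte marker. Without MCD 2, it called 2 macrophage markers lower, 6 stellate cell markers, 3 cholangiocyte markers and 0 neutrophil markers (3 at an unadjusted p under 0.05 with all libraries). Calls fell over all genes too, to 797 of 10310 lower without limonin 2, 5 and 6 and 996 of 10294 without MCD 2. With group means subtracted, the summed macrophage markers had an r of 0.71 with Atf3, 0.38 with Ddit3, 0.29 with Gdf15, 0.28 with Nupr1 and 0.22 with Fgf21 over the 11 libraries. For the summed stellate cell markers these values were 0.65, 0.47, 0.44, 0.31 and 0.48, for cholangiocyte markers 0.41, 0.05, 0.29, 0.26 and 0.36, and for neutrophil markers 0.68, 0.39, 0.27, 0.32 and 0.16.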

How the data were processed

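Liver mRNA of 5 MCD and 6 limonin mice was sequenced from poly(A) libraries that mark the strand, per the labels' protocols. The tools were HISAT2 2.0.4, StringTie 1.3.4d and cutadapt 1.9, per the submitters' processing notes. Those notes name the human build GRCh38, although 31191 of the 31280 gene identifiers are those of mouse GENCODE M21. The authors deposited FPKM per gene and library, with their own fold ratio, log2 fold change, p-value and q-value. Their ratio equals the ratio of mean FPKM within 0.01 on the log2 scale for all genes with both means above 0. Depth is known only through the implied fragments; low genes, such as Chac1, are the least precise.

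The members and lists were chosen with earlier results of these data known. From the FPKM values, log2(FPKM + 1) was tested with limma 3.58.1 (R 4.3.3; trend and robust), for genes reaching 1 FPKM in 5 or more libraries, with Benjamini-Hochberg adjustment over all of them and a threshold of 0.05. Correlations and ratios used exact permutation tests. With detected genes regressed out, and under the replicate block, correlations used permuted residuals, which is approximate. The limma fit and the correlation test were tested on simulated data. Besides the 10 members, the 3 tested genes of each list with the smallest p-values were named, and any called gene of a list with 3 or fewer. Alternatives covered the filter, the pseudocount, scaling, variance settings, weights, the replicate block and left-out libraries.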

Additional observations from a re-analysis of the deposited data

Results flagged for a closer look

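Single libraries lay far from the rest of their group in 7 of the 92 combinations of a named gene and a group examined, where chance gives about 1 in 20, and none of the 7 was one of the 10 members. Limonin 3 stood above the other 5 limonin libraries in 5 of them: Dele1 at 8.43 FPKM (the others 5.77 to 6.46), Jund at 76.0 FPKM (34.9 to 49.1), Eif4ebp1 at 43.6 FPKM (26.7 to 32.7), Sqstm1 at 269 FPKM (155 to 179) and Phlda3 at 4.90 FPKM (1.45 to 2.25). Cyp4a10 in limonin 2 stood below its group at 94.5 FPKM (126 to 135), and Cbs in MCD 1 below its group at 21.7 FPKM (28.8 to 30.6). Limonin 3 was also the highest or second highest limonin library for all 10 members.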

How the results depend on the processing

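Of the 10 members 5 were lower, against 1957 of 10489 genes tested. Leaving out 1 library gave 4 to 5, with 996 to 2118 lower over all genes. Other settings gave 4 or 5, apart from the fit without MCD 4 and 5 and the replicate block. Those gave 3 (1285 of 10113 over all genes) and 1 (893 of 10489). The call of Fgf21 was also lost with no filter (adjusted p = 0.0779, limma), with pseudocounts of 0.1 (0.0505) and 0.01 (0.0519), with equal summed FPKM (0.0776), without limonin 5 and 6 (0.111) and without MCD 4 and 5 (0.0929), and that of Nupr1 without MCD 4 and 5 (0.0588).

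The labels number the replicates of both groups, but same-numbered libraries did not vary together (r of 0.08, -0.24, -0.17, 0.20 and -0.17), so the numbers were not taken as pairs. Under the replicate block, in which limonin 6 has no partner, Ddit3 was lower (adjusted p = 0.0256, limma), Nupr1, Atf3, Gdf15 and Fgf21 had 0.0697, 0.0743, 0.0895 and 0.222, 1256 genes in all were called, and no covariation pair passed.

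Pathway genes lower numbered 15, and 7 to 23 without 1 library, 8 with no filter, 8 at 5 FPKM or more, 7 with equal summed FPKM, 6 under the block, 9 without limonin 5 and 6, 7 without limonin 2, 5 and 6 and 7 without MCD 4 and 5. Those higher numbered 6, and 2 to 9, 2 with no filter, 16 with median-ratio scaling, 19 with quantile normalization, 11 with equal summed FPKM, 3 under the block, 13 without limonin 5 and 6, 10 without limonin 2, 5 and 6, 3 without MCD 4 and 5 and 21 by the authors' calls. Of all 10489 genes 1470, 1813 and 1096 were higher with median-ratio scaling, quantile normalization and equal summed FPKM. It was 1332 of 10407 without limonin 5 and 6, and 955 of 10310 without limonin 2, 5 and 6. The authors called 5010 of 31280 genes, 2328 of them lower. Of the covariation pairs 9 passed, and 1 to 10 without 1 library, 2 with median-ratio scaling, 0 in limonin libraries alone, 0 under the block and 2 with detected genes regressed out. Of the ratio pairs 24 passed, and 18 to 25 without 1 library and 0 without limonin 2, 5 and 6, where too few splits remain to decide.

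Uncalled values near 0 changed sign: Atf4 to 0.11 and Sesn2 to 0.0048 without limonin 2, 5 and 6, and Trib3 to 0.0091 without limonin 5 and 6 and 0.19 without limonin 2, 5 and 6. Asns was at -0.023 with weights and -0.11 to 0.17 without 1 library. Chac1 was at 0.00499 and 0.0076 with pseudocounts of 0.1 and 0.01, 0.051 with median-ratio scaling, 0.13 with quantile normalization, 0.076 with equal summed FPKM, 0.058 under the block, 0.19 without limonin 5 and 6, 0.27 without limonin 2, 5 and 6, 0.24 without MCD 4 and 5, and -0.15 to 0.16 without 1 library. The r of Fgf21 with Asns was -0.47 to 0.17 without 1 library. Over all genes 2716 were called, and 2190 with no filter, 1424 at 5 FPKM or more, 1734 without MCD 4 and 5 and 1314 without MCD 2. Of 888 refits of the other named genes, 756 kept direction and call, 104 lost the call, 28 gained it and 0 reversed. The cause of these changes was not tested.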
